A study of Mus musculus with 7 samples.

Results

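The mouse class I histocompatibility genes and the genes that prepare peptides for them were described across 7 RNA-sequencing libraries of skin. The rows were chosen by symbol: every H2 symbol of the D, K, Q, T, M and Bl series, without H2-DM, together with B2m, Tap1, Tap2, Tapbp, Psmb8, Psmb9 and Psmb10. This gave 38 of the 22552 rows of the table. The family itself was chosen on values of these libraries, since H2-T9 and some class II genes had stood out between Koa and WT ear and class I genes had been singled out in an earlier look at all libraries, so the differences below are given as a description and nothing is tested with them. Of the 38 genes, 31 carry an H2 symbol and 7 are the processing genes. H2-Ke2, a synonym of Pfdn6 in RefSeq, and H2-Ke6 fit the symbol rule but are not class I genes, which leaves 29 class I genes. On GRCm38, 35 of the 38 could be placed by symbol, 33 of them on chromosome 17, with B2m on chromosome 2 and Psmb10 on chromosome 8.

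RNA had been extracted from cells sorted by flow cytometry from the skin of mice at postnatal day 50, and every library carries the strain label CD1/C3H. Ear epidermis and ear dermis came from Wt/Wt mice (WT) and from mice with 1 copy of Koa (Wt/Koa), a dominant mutation known for hairy ears and caused by a chromosomal inversion. Dorsal epidermis, dorsal dermis and tail dermis came from Wt/Wt mice. The labels give neither the surface markers used for sorting, nor the number or sex of the animals, nor the H2 haplotype. There was 1 library per group, so differences come without a replicate check, a test or a p-value.

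Class I molecules consist of a heavy chain, encoded by the H2 genes, and the light chain beta-2-microglobulin, encoded by B2m. They show peptides from inside the cell to CD8 T cells. The peptides are cut by the proteasome, whose catalytic subunits can be replaced by those of the immunoproteasome (Psmb8, Psmb9 and Psmb10), carried into the endoplasmic reticulum by the transporter of Tap1 and Tap2, and loaded with the help of tapasin (Tapbp). H2-K1 and H2-D1 are the classical heavy chains, present on nearly all nucleated cells, and the Q, T and M genes encode nonclassical ones, many with narrower roles. Interferons raise most of these genes, through factors such as Irf1 and the class I transactivator Nlrc5, and keratinocytes are known to respond in this way.

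The start regions of several heavy chain genes share elements known from class I promoters, an interferon response element and an NF-kB match. No element for Nlrc5 was searched. Shown are the members at 1 FPKM or more in a library whose promoter held TTTCACTT, to set their elements side by side. RefSeq promoters of GRCm38.p6, 250 bases before to 50 after the start, were found for 27 members once H2-Ke2 and H2-Ke6 were left out. The 60 bases around TTTCACTT, the letters of the interferon response element of class I genes, are given 5′ to 3′ on the strand of the gene. Capitals mark TTTCACTT and, before it, a match to the NF-kB consensus. In H2-T22 the capitals of TTTCACTT run on because a pair of GAAA boxes 2 bases apart, read on the other strand, overlaps it.
H2-K1, chr17:34000410-34000469, minus strand: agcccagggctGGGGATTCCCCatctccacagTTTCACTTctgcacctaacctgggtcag
H2-D1, chr17:35262912-35262971, plus strand: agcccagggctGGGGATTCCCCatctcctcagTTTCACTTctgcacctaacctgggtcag
H2-Q6, chr17:35424666-35424725, plus strand: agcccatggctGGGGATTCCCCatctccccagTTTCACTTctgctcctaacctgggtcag
H2-Q7, chr17:35439010-35439069, plus strand: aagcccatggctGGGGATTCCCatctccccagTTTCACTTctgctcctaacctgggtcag
H2-Q10, chr17:35469902-35469961, plus strand: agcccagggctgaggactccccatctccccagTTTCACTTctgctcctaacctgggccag
H2-M3, chr17:37270101-37270160, plus strand: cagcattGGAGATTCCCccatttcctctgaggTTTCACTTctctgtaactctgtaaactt
H2-T22, chr17:36042906-36042965, minus strand: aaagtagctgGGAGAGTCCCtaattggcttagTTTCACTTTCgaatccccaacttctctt

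TTTCACTT was searched on both strands after the promoters had been seen, and occurred in 8 of the 27 members (H2-D1, H2-K1, H2-Q6, H2-Q7, H2-Q10, H2-M3, H2-T22 and H2-T3), against 1.60% of all 32851 promoters of that length. The NF-kB consensus was present in 8 members (B2m, H2-D1, H2-K1, H2-M2, H2-M3, H2-Q6, H2-Q7 and H2-T22), against 8.46% of all promoters. In H2-D1, H2-K1 and H2-Q6 the stretch matches at overlapping positions. Both motifs stood together in 6 members. A pair of GAAA boxes 2 bases apart, on either strand, was present in 3 members (B2m, H2-T22 and H2-T23), against 3.44% of all promoters. H2-Q10 keeps TTTCACTT but has no NF-kB match at the place where its neighbours have one.

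The promoter of the light chain gene B2m carries its elements in another arrangement, the paired GAAA boxes first and the NF-kB match behind them, both in capitals.
B2m, chr2:122147437-122147736, plus strand: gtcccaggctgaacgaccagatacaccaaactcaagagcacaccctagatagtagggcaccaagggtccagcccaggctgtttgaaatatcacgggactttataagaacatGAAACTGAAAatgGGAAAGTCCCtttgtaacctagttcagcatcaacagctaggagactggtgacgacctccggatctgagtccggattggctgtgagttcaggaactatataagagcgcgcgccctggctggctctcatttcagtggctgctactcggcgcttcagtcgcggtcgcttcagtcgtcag
Tap1 and Psmb9 are transcribed away from each other from start sites 226 bases apart on chromosome 17, at 34187556 on the plus strand and at 34187330 on the minus strand. Neither of their promoters held a match to the 3 motifs, which says only that these letters are not in those windows.

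Levels are FPKM, fragments scaled to transcript length and to the mapped fragments of the library, as deposited, so levels of different genes are compared per length. Differences are on the scale of log2(FPKM + 1), which understates differences of low genes. A gene was counted in a comparison where it reached 1 FPKM in at least 1 of the 2 libraries, and it was called higher or lower where it differed by at least 1 on that scale. The share of all genes called in the same direction is given beside each count. Depth was recovered for 6 libraries and lay between 31.15 M and 39.85 M (mega) fragments. Ratios of 2 libraries carry exact 95% intervals at these depths, which cover counting error only and no variation between animals. The values for tail follow another procedure: they have at most 2 decimals, and 222 genes are 0 there although each of the remaining 6 libraries has at least 10 FPKM of them. They are therefore only set beside the other libraries, as levels or as ratios within tail, and entered none of the 7 comparisons.

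In ear and back the marker sums followed the layer labels, least clearly in dorsal dermis. Summed over 8 keratinocyte markers (Krt5, Krt14 and others), the epidermal libraries held 15193 to 20021 FPKM, and over 7 fibroblast markers (Pdgfra, Dcn and others) they held 28.9 to 45.7 FPKM. The dermal libraries of ear and back held 6032 to 11156 FPKM of the fibroblast markers. They also held keratinocyte RNA, and unequally: by the median ratio of the 8 markers to the epidermal library of the same site, it amounted to 6.85% of WT ear dermis, 10.8% of Koa ear dermis and 40.7% of dorsal dermis. Over the single markers this share ran from 4.12% to 10.6% in WT ear, from 9.81% to 13.9% in Koa ear and from 26.5% to 47.6% in the back. Dorsal dermis held 6374 FPKM of the keratinocyte markers, more than its 6032 FPKM of fibroblast markers. WT and Koa ear dermis held 772 and 1928 FPKM of the keratinocyte markers. The leukocyte gene Ptprc stood at 0.0343 to 0.325 FPKM in epidermis and at 30.9 to 50.8 FPKM in the dermis of ear and back. In bulk libraries fewer cells of a type and less RNA per cell cannot be told apart.

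Of the 38 genes, 28 reached 1 FPKM in at least 1 library. They were all 3 of the K and D region, all 7 of the Q region, 5 of 7 of the T region with H2-Bl, 4 of 12 of the M region, the 7 processing genes, and H2-Ke2 and H2-Ke6. Above 0 but under 1 FPKM everywhere were H2-Bl, H2-T3, H2-M10.2, H2-M10.6 and H2-M11, the highest value being 0.860 FPKM for H2-T3 in dorsal dermis. H2-M1, H2-M10.1, H2-M10.3, H2-M10.4 and H2-M10.5 were listed at 0 in every library. The H2-M1 and H2-M10 genes are known from sensory neurons of the mouse vomeronasal organ.

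**Figure D1:**
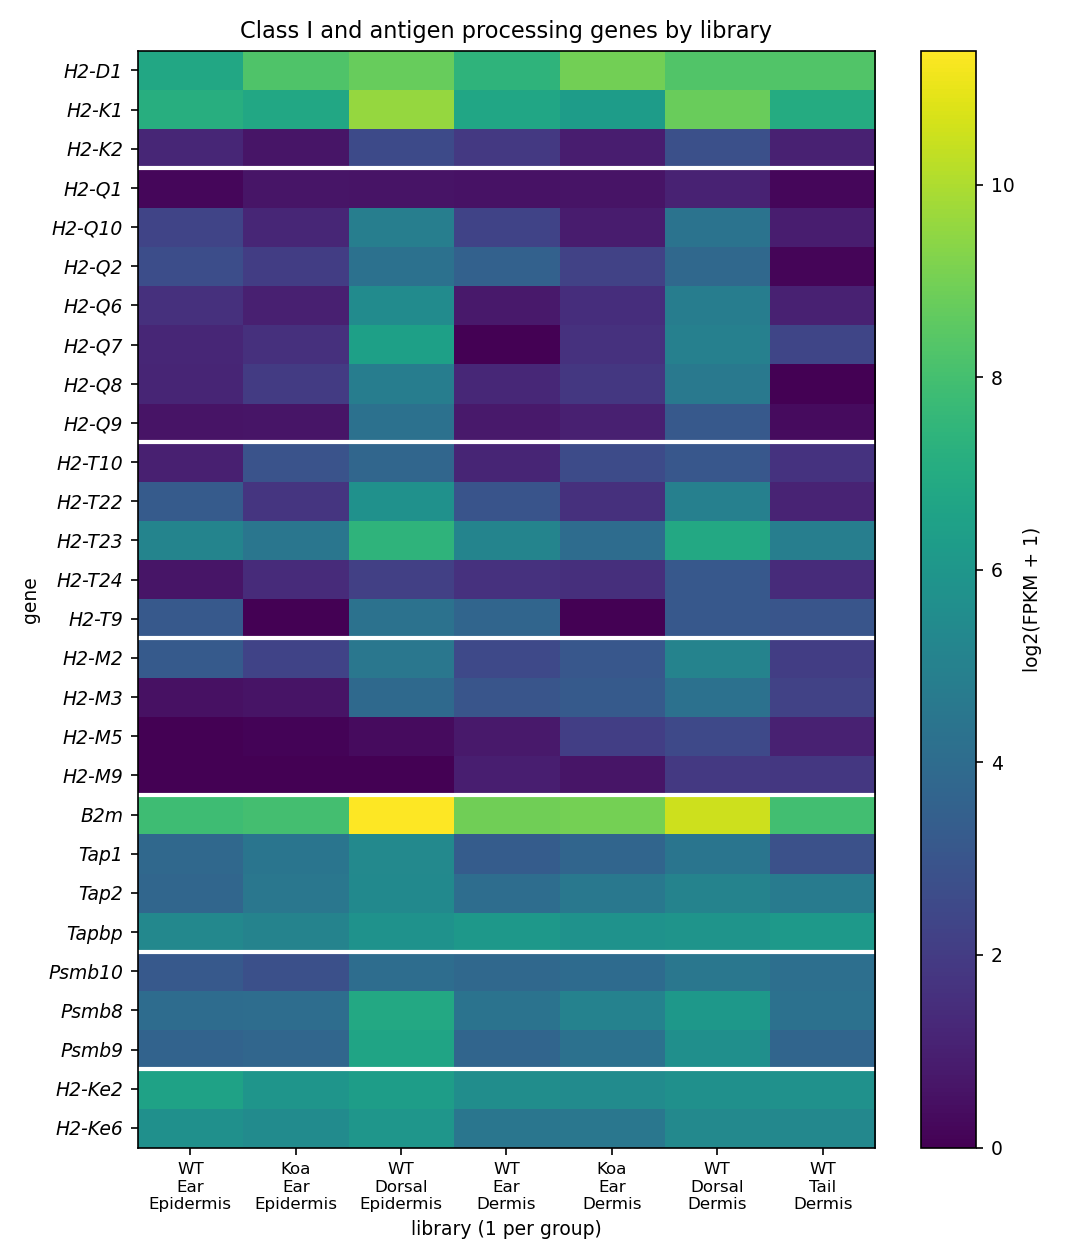
Level of the 28 genes that reached 1 FPKM, as log2(FPKM + 1) by colour, in the 7 libraries (columns, 1 library each); white lines part the K and D, Q, T and M regions, light chain and loading, immunoproteasome, and the H2-Ke genes. Dorsal epidermis is the brightest column for 17 of the 28 genes among the 6 libraries other than tail, and B2m reaches 2686 FPKM there.

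B2m, H2-D1 and H2-K1 were the most abundant members in all 7 libraries. The sum of the 29 class I heavy chain genes was 332 FPKM in WT ear epidermis, 469 in Koa ear epidermis, 1718 in dorsal epidermis, 365 in WT ear dermis, 629 in Koa ear dermis, 1120 in dorsal dermis and 497.5 in tail dermis. H2-D1 and H2-K1 made up between 67.8% of this sum in dorsal dermis and 90.7% in Koa ear dermis, and H2-T23 was the next heavy chain gene in all 7 libraries. Dorsal epidermis was the highest of the 6 comparable libraries for 17 of the 28 genes and dorsal dermis for 8. The exceptions were H2-D1, highest in Koa ear dermis, Tapbp in WT ear dermis and H2-Ke2 in WT ear epidermis.

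The first comparison was between back and ear in WT epidermis. Of 25 genes expressed there, 21 stood higher in dorsal epidermis and none lower, with a median difference of 2.27, against 11.5% higher and 5.47% lower among all 12500 genes, whose median was -0.02. The 4 that stayed within the rule were Tapbp, Psmb10, H2-Ke2 and H2-Ke6. No class I heavy chain gene expressed in this comparison was among those 4. H2-M3, H2-T24 and H2-Q9 were under 1 FPKM in ear and were counted only through their level in the back. A gene counted in that way cannot be called lower. Heavy chain genes under 1 FPKM in both libraries, such as H2-Bl and H2-Q1, were not counted. H2-T9 was the gene just inside the rule with a difference of 1.15, and Psmb10 the one just outside with 0.90.

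B2m stood at 232 FPKM in WT ear epidermis and at 2686 FPKM in dorsal epidermis, a ratio of 11.6 (11.3 to 11.9). H2-K1 stood at 141 and 763 FPKM, with a ratio of 5.42 (5.29 to 5.56). H2-D1 stood at 113 and 429 FPKM, with a ratio of 3.80 (3.70 to 3.89). The light chain thus differed by a larger factor than either classical heavy chain. H2-K2, a neighbour of H2-K1 that GENCODE lists as a transcribed pseudogene, stood at 1.30 and 4.88 FPKM.

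The Q genes lie in a row on chromosome 17 between H2-D1 and the T genes, and several of them encode Qa-2, a protein held by a lipid anchor. H2-Q7 stood at 1.31 FPKM in WT ear epidermis and at 88.4 FPKM in dorsal epidermis, a ratio of 67.7 (53.3 to 86.9). H2-Q6 stood at 2.01 and 44.6 FPKM, H2-Q8 at 1.29 and 27.3 FPKM, and H2-Q9 at 0.524 and 17.8 FPKM. Of the 50-base windows of the H2-Q7 transcript 34.9% also occur in another gene, and 19.3% occur in H2-Q6. Of those of H2-Q6 31.97% occur in another gene, and 13.9% occur in H2-Q7. Reads can thus be divided between these rows and with genes outside them, such as H2-Q4 and H2-Q5. H2-Q8 and H2-Q9 had no sequence in the annotation used. Summed over H2-Q6 to H2-Q9, the level was 5.13 FPKM in WT ear and 178 FPKM in dorsal epidermis. The sum depends less on the division among these rows, while reads shared with genes outside them remain. The labels give no H2 haplotype for ear or back. Level and allele can therefore not be told apart for the class I genes between ear and back, in either layer. H2-Q10, known for a secreted product of the liver, stood at 4.06 and 28.2 FPKM, and H2-Q2 at 5.45 and 18.0 FPKM. H2-Q1 stayed under 1 FPKM in all 3 epidermal libraries.

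Among the T genes, H2-T23 encodes Qa-1, the ligand of an inhibitory receptor of natural killer cells. It stood at 34.6 FPKM in WT ear epidermis and at 171 FPKM in dorsal epidermis, a ratio of 4.95 (4.70 to 5.22). H2-T22 and H2-T10, whose products are known ligands of gamma delta T cells, stood at 8.79 and 52.6 FPKM and at 1.02 and 12.6 FPKM. H2-T9, a close relative of both, stood at 8.0 and 18.9 FPKM, and H2-T24 at 0.588 and 3.43 FPKM. All 5 were thus higher in the back. In the M region, H2-M3, which presents formylated peptides of bacteria and mitochondria, stood at 0.446 and 13.8 FPKM, and H2-M2 at 8.26 and 21.8 FPKM.

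The processing genes divided. Psmb8 stood at 15.5 FPKM in WT ear and 116 FPKM in dorsal epidermis, a ratio of 7.52 (7.003 to 8.08), and Psmb9 at 11.3 and 101 FPKM, with a ratio of 8.98 (8.19 to 9.85). Psmb10, the third subunit of the immunoproteasome, stood at 8.08 and 15.9 FPKM. Tap1 stood at 13.2 and 40.6 FPKM and Tap2 at 12.4 and 41.9 FPKM, whereas Tapbp stood at 38.7 and 54.8 FPKM. Psmb8 and Psmb9 therefore differed by larger factors than the transporter genes, and tapasin by the smallest of the 7.

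**Figure D2:**
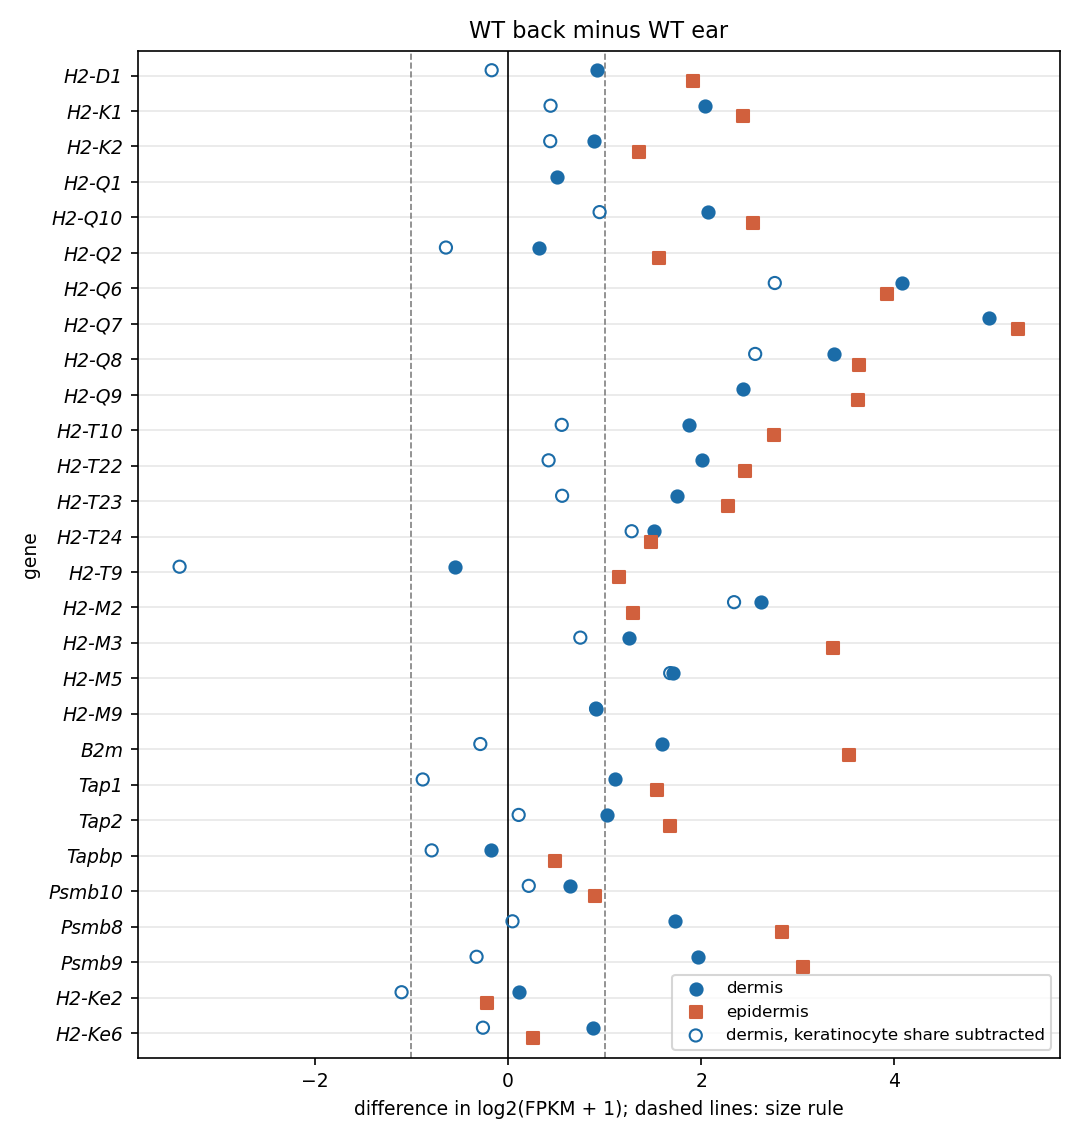
Difference between WT back and WT ear in log2(FPKM + 1) on the x axis for each expressed gene on the y axis, in dermis (filled circles), in epidermis (squares) and in dermis after the median keratinocyte share was subtracted without rescaling (open circles, drawn where 1 FPKM remained in 1 library); dashed lines mark the size rule of 1. In epidermis 21 of 25 genes lie right of the upper line, and most open circles lie between the lines.

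The constitutive subunits that the immunoproteasome replaces gave no such difference: Psmb5, Psmb6 and Psmb7 all stayed within the size rule between ear and back in both layers. The ratio of Psmb8 to Psmb5 was 0.117 in WT ear epidermis, 0.163 in Koa ear epidermis and 0.940 in dorsal epidermis. In dermis it was 0.284 in WT ear, 0.502 in Koa ear and 0.975 in back, and 0.242 in tail. The ratio of Psmb9 to Psmb6 had the same order within each layer, with 0.0705, 0.10 and 0.712 in epidermis and 0.129, 0.224 and 0.612 in dermis. Psmb10 stayed far below Psmb7 in every library, with ratios of 0.0312 to 0.163.

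**Figure D3:**
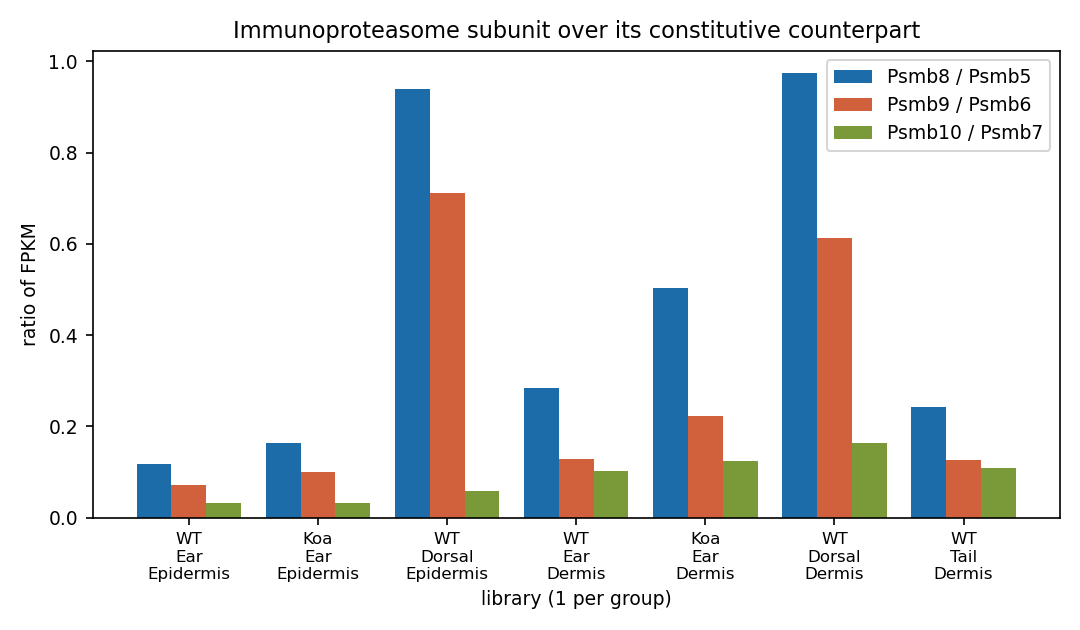
Ratio of the FPKM of each immunoproteasome subunit to that of the constitutive subunit it replaces (y axis) in each library (x axis, 1 library per group, no error bars). The bars of Psmb8 over Psmb5 reach 0.940 and 0.975 in dorsal epidermis and dermis and stay at or under 0.502 elsewhere.

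Other genes of the pathway were read from lists. Of the genes of class I transactivation, Irf1, Nlrc5, Ifngr1 and Irf2 stood higher in dorsal than in WT ear epidermis. Nlrc5, the class I transactivator, stood at 1.32 and 11.5 FPKM, and the transcription factor Irf1 at 9.69 and 68.7 FPKM. Of 12 expressed interferon-stimulated genes, 9 stood higher, among them the chemokine gene Cxcl10 at 0.893 and 30.3 FPKM and Isg15 at 1.93 and 18.2 FPKM. Of 9 genes of peptide supply and loading only the chaperone gene Hspa5 stood higher, at 138 and 548 FPKM, and of 5 expressed class I-like genes outside the family Procr and Mr1 did. The higher levels thus included regulators and interferon-stimulated genes beside the class I genes.

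Of 3 expressed T cell markers, Cd3e and Cd3g stood higher in dorsal than in WT ear epidermis, at low levels, with Cd3g at 0.0604 FPKM in ear and 1.16 FPKM in back, and Thy1 was within the rule. Of the Langerhans and dendritic cell markers only Xcr1 was expressed there, and it stood higher, at 0.507 and 3.65 FPKM. The single expressed macrophage marker, Cd68, was within the rule. Ptprc was under 1 FPKM in both libraries, at 0.0343 and 0.325 FPKM, and was not counted. Of 8 expressed class II genes, which mark antigen-presenting cells but can be induced elsewhere, 7 stood higher, with H2-Aa at 1.75 and 9.67 FPKM. Summed markers were 38.1 and 73.1 FPKM for T cells (5 genes, mostly Thy1), 1.25 and 4.88 FPKM for Langerhans and dendritic cells (5 genes), and 3.26 and 6.58 FPKM for macrophages (4 genes). The part of these cells in the class I levels was not tested.

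In dermis, 18 of 28 expressed genes stood higher in WT back than in WT ear and none lower, with a median difference of 1.55, against 11.7% higher and 7.05% lower among 14234 genes. Both comparisons of back with ear thus went in 1 direction for every member past the rule. In dermis H2-Q1, H2-Q6, H2-Q7, H2-Q9, H2-M5 and H2-M9 were under 1 FPKM in ear. They were counted only through the back and could not be called lower. The dermal comparison is not a separate check of the epidermal one. By the markers, keratinocyte RNA made up 40.7% of dorsal dermis and 6.85% of WT ear dermis. B2m stood at 489 FPKM in ear and 1481 FPKM in back, a ratio of 3.03 (2.96 to 3.09), and H2-K1 at 107 and 443 FPKM, with a ratio of 4.14 (4.02 to 4.26). H2-D1 stood at 167 and 316 FPKM and was the gene just outside the rule with a difference of 0.92, and Tap2 was just inside with 1.02.

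H2-Q7, H2-Q6 and H2-Q8 again differed most in dermis, whereas H2-Q1 and H2-Q2 stayed within the rule, with differences of 0.50 and 0.32. H2-Q6 stood at 0.707 FPKM in WT ear and 27.8 FPKM in back, and H2-Q6 to H2-Q9 summed to 2.79 and 90.2 FPKM. H2-Q7 stood at 0.00161 FPKM in WT ear dermis, which is less than 1 fragment at that depth, and at 30.6 FPKM in back. Of the M genes, H2-M2 stood at 4.63 and 33.5 FPKM and H2-M5 at 0.739 and 4.67 FPKM, both with their highest level in dorsal dermis. H2-T9 stood at 12.0 and 7.87 FPKM and was, with Tapbp at 66.8 and 59 FPKM, the only one of the 28 with a lower level in the back.

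Because 40.7% of dorsal dermis and 6.85% of WT ear dermis was keratinocyte RNA by the markers, each dermal library was also read after subtraction of that share of its epidermal library. Remainders below 0 were set to 0. These alternatives were chosen after the data had been seen. At the median share 5 genes were left higher and 2 lower of 25, in place of 18 and none of 28, against 4.51% higher and 37.4% lower among all 13451 genes, since the remainder of dorsal dermis is less than a whole library. With each remainder rescaled to a whole library, 12 stood higher and 1 lower of 28, against 9.91% and 14.2% among 13934 genes. Without rescaling, the lowest marker share left 12 higher and 1 lower of 27, against 6.78% and 15.8% among 13842 genes. The highest left 5 and 5 of 25, against 4.18% and 45.9% among 13198 genes.

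The genes that stayed higher in the back under all 4 of these subtractions were H2-M2, H2-M5, H2-Q6, H2-Q8 and H2-T24. At the median share without rescaling H2-M2 stood at 24.6 FPKM in back against 4.06 FPKM in ear, H2-M5 at 4.56 against 0.738 FPKM, H2-Q6 at 9.64 against 0.570 FPKM, H2-Q8 at 12.5 against 1.29 FPKM and H2-T24 at 6.28 against 2.00 FPKM. H2-T9 stood lower in the back under all 4, at 0.179 against 11.45 FPKM at the median share. B2m, H2-K1, H2-D1 and H2-Q7 were among the genes that depended on the share or the scale. B2m stood at 388 FPKM in back and 473 FPKM in ear at the median share, at 654 and 508 FPKM after rescaling, at 769 and 479.6 FPKM at the lowest share and at 203 and 464 FPKM at the highest. H2-K1 stood at 133 and 97.5 FPKM at the median share and at 224 and 105 FPKM after rescaling, where it passed the rule. H2-D1 stood at 142 FPKM in back and 159 FPKM in ear at the median share, and at 239 and 171 FPKM after rescaling. At the lowest share H2-D1 stood at 202 and 162 FPKM, and at the highest at 112 and 155 FPKM. For H2-Q7 the median share removed more than either library held, so its remainder was set to 0 in both. At the lowest share H2-Q7 stood at 7.18 FPKM in back. Whether B2m, H2-K1, H2-D1 and the processing genes differed between back and ear in the other dermal cells could therefore not be told from these libraries.

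Other cells differed as well between the dermal libraries of back and ear. Of 5 T cell markers 4 stood higher in the back, with Cd3g at 23.6 and 121 FPKM, and of 4 mast cell markers 3 stood lower. Ptprc stood at 30.9 and 50.8 FPKM. The 7 fibroblast markers summed to 11156 and 6032 FPKM, with 3 of them lower in the back and 1, Dpt, higher. Of 4 macrophage markers Itgam stood higher and Cd68 lower. Of 5 Langerhans and dendritic cell markers Cd207 and Xcr1 stood higher and Flt3 lower. Of the transactivation genes, Irf1 (22 and 133 FPKM) and Nlrc5 (0.774 and 6.44 FPKM) stood higher, and of 17 interferon-stimulated genes 11 did. The part of the leukocytes in these levels was not tested.

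The second comparison was between Koa and WT ear. In dermis 4 of 26 expressed genes stood higher in Koa (H2-D1, H2-T10, H2-Q7 and H2-M5) and 5 lower (H2-T9, H2-T22, H2-T23, H2-Q2 and H2-Q10), with a median of 0.18, against 1.71% higher and 1.07% lower among 13690 genes. In epidermis 2 of 23 stood higher (H2-D1 and H2-T10) and 3 lower (H2-T9, H2-T22 and H2-Q10), with a median of -0.25, against 2.15% higher and 0.854% lower among 12062 genes. These contrasts served to choose the family, so nothing is read from the counts against those shares. The 5 genes past the rule in epidermis were all past it in dermis in the same direction. The share of all genes past the rule in both layers was not computed. Whether the layers come from the same animals is not given, so nothing is read from this overlap.

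H2-D1 stood at 167 FPKM in WT and 494 FPKM in Koa ear dermis, a ratio of 2.96 (2.89 to 3.02), and at 113 and 308 FPKM in epidermis, a ratio of 2.73 (2.66 to 2.80). H2-K1 stood at 107 and 76.8 FPKM in dermis, a ratio of 0.717 (0.688 to 0.748), and at 141 and 111 FPKM in epidermis. In both layers H2-D1 was therefore higher and H2-K1 slightly lower in Koa. The ratio of H2-D1 to H2-K1 went from 1.56 to 6.43 in dermis and from 0.804 to 2.77 in epidermis, and was 0.563 in dorsal epidermis, 0.714 in dorsal dermis and 2.43 in tail. The H2-D1 transcript shares 14.3% of its 50-base windows with other genes and H2-K1 8.79%, of which 6.94% are with H2-D1. Their sum stood at 274 and 571 FPKM in dermis and at 254 and 419 FPKM in epidermis, so the higher H2-D1 was not matched by an equal loss of H2-K1. B2m was nearly level, at 489 and 520.3 FPKM in dermis and at 232 and 249.8 FPKM in epidermis.

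**Figure D4:**
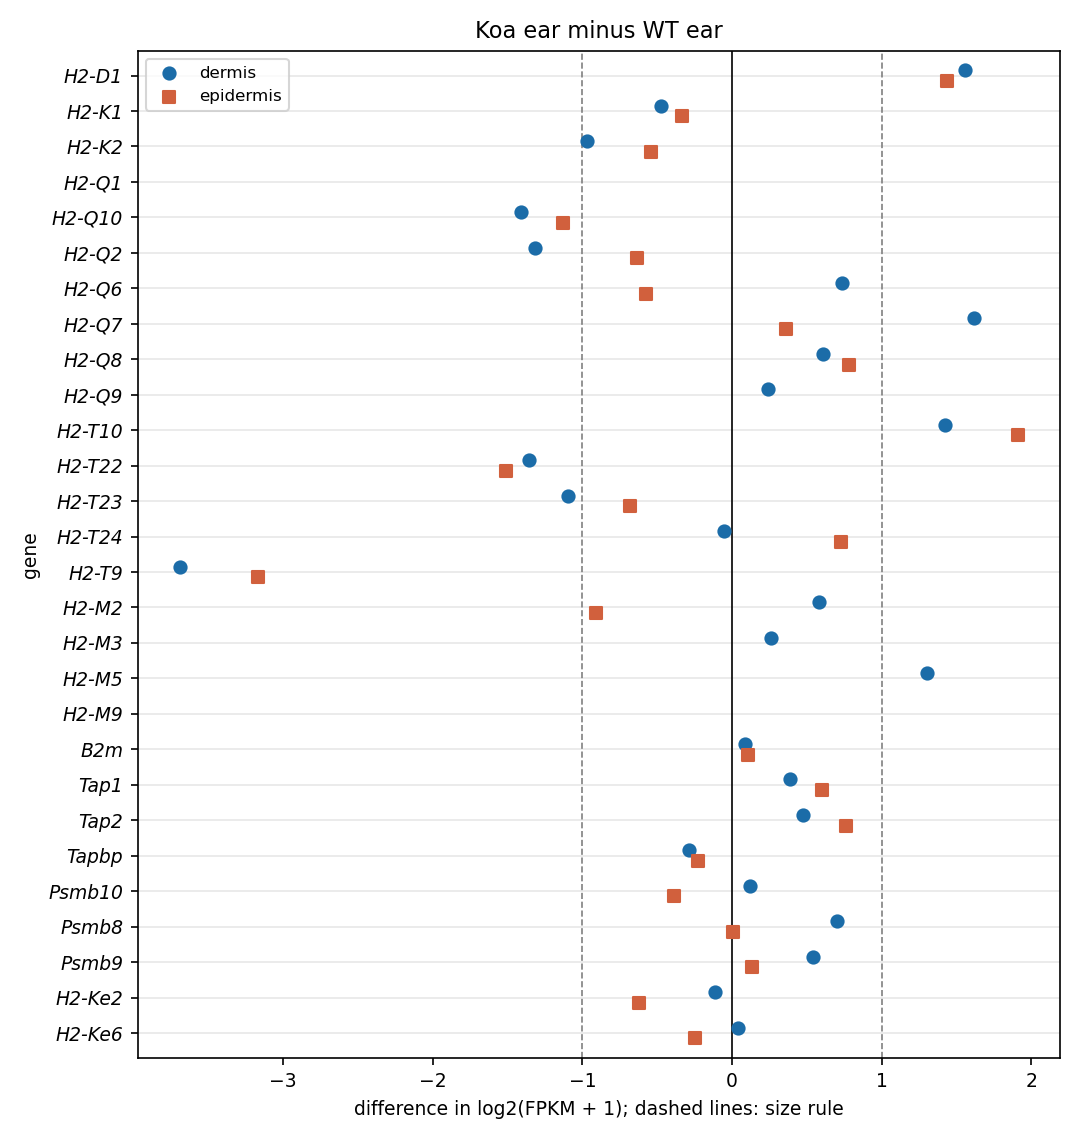
Difference between Koa and WT ear in log2(FPKM + 1) on the x axis for each expressed gene on the y axis, in dermis (circles) and epidermis (squares); dashed lines mark the size rule of 1. H2-T9 lies furthest to the left in both layers, at -3.69 and -3.17, and H2-D1 and H2-T10 lie right of the upper line in both.

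H2-T9 had the widest difference of the family. It stood at 12.0 FPKM in WT and 0.00562 FPKM in Koa ear dermis, and at 8.0 and 8.28e-05 FPKM in epidermis. For a transcript of an assumed 2000 nt this comes to 782 and 580 fragments in WT and to less than 1 fragment in Koa in each layer. H2-T9 is in none of the annotations used here, so its own length and sequence were not used. In the back of WT mice it stood at 7.87 FPKM in dermis and 18.9 FPKM in epidermis. In tail, whose values follow another procedure, it was listed at 7.0 FPKM. Among the 6 libraries other than tail, the 2 from Koa ear were thus the only ones with less than 0.01 FPKM of H2-T9.

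H2-T22 stood at 6.70 and 2.00 FPKM in WT and Koa ear dermis, a ratio of 0.299 (0.240 to 0.371), and at 8.79 and 2.43 FPKM in epidermis, a ratio of 0.277 (0.227 to 0.335). H2-T10 went the opposite way, at 1.29 and 5.13 FPKM in dermis, a ratio of 3.99 (2.99 to 5.38), and at 1.02 and 6.59 FPKM in epidermis, a ratio of 6.46 (4.79 to 8.78). The ratio of H2-T10 to H2-T22 was 0.116 to 0.248 in the 4 WT libraries of ear and back, 2.56 and 2.71 in the Koa libraries, and 1.84 in tail. Of the H2-T10 transcript 40.2% of the windows also occur in H2-T22, and of H2-T22 37.9% occur in H2-T10, so a difference in transcription and a different division of reads between these rows cannot be told apart. Summed over H2-T9, H2-T10 and H2-T22 the level was 19.99 and 7.13 FPKM in dermis and 17.8 and 9.02 FPKM in epidermis. The sum was thus also lower in Koa, in dermis by more than the size rule.

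**Figure D5:**
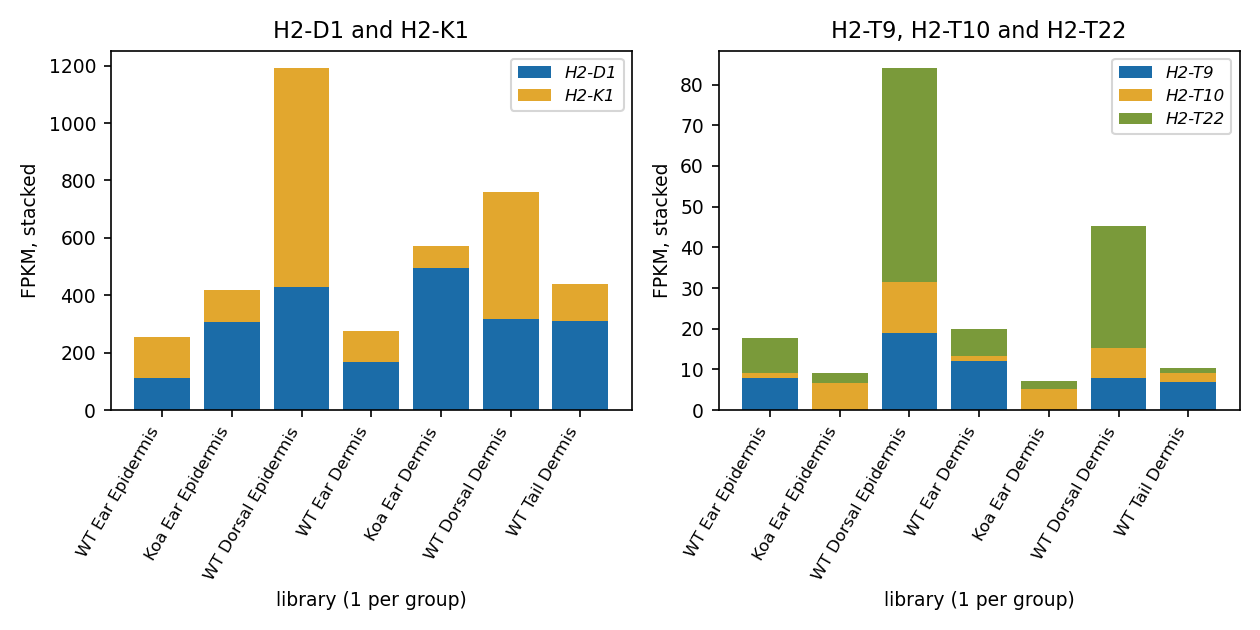
Stacked FPKM (y axis, from 0) of H2-D1 and H2-K1 (left) and of H2-T9, H2-T10 and H2-T22 (right) in each library (x axis, 1 library per group, no error bars). In the Koa libraries H2-D1 makes up most of the left bar, and the right bar has no H2-T9 and more H2-T10 than H2-T22.

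The other T and Q genes moved less evenly. H2-T23 stood at 34.1 and 15.4 FPKM in WT and Koa ear dermis and was just inside the rule with a difference of -1.10, while in epidermis it stood at 34.6 and 21.2 FPKM, within the rule. H2-Q10 stood at 3.83 and 0.819 FPKM in dermis and at 4.06 and 1.31 FPKM in epidermis, where it was the gene just inside with -1.13. H2-Q2 stood at 10.7 and 3.71 FPKM in dermis and at 5.45 and 3.15 FPKM in epidermis. The genes just outside the rule were H2-K2 in dermis (2.72 and 0.903 FPKM) and H2-M2 in epidermis (8.26 and 3.92 FPKM). H2-Q7 stood at 0.00161 and 2.07 FPKM in dermis and at 1.31 and 1.97 FPKM in epidermis. H2-M5 stood at 0.739 and 3.29 FPKM in dermis and was under 1 FPKM in both epidermal libraries of the ear. H2-Q6, H2-Q8, H2-Q9, H2-T24 and H2-M3 stayed within the rule wherever they were expressed.

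None of the 7 processing genes passed the rule between Koa and WT ear in either layer. The widest were Tap2 in epidermis, at 12.4 and 21.8 FPKM, and Psmb8 in dermis, at 19.4 and 32.2 FPKM, with a ratio of 1.66 (1.53 to 1.79). Nlrc5, Irf1, Irf2 and Ifngr1 did not pass in either layer, and of the interferon-stimulated genes 1 of 15 did in dermis, the interferon-inducible GTPase gene Iigp1 (1.5 and 4.24 FPKM), and none of 5 in epidermis. These regulators and the processing genes thus stayed within the rule, unlike several of them between back and ear.

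In ear dermis 2 of 11 expressed class II genes of the same complex or its pathway stood higher in Koa and 2 lower, and in epidermis none of 6 passed the rule. The 2 higher were H2-DMb2, whose level was 24.00 FPKM with Koa against 5.24 FPKM without it, and H2-Ob, at 2.75 and 0.512 FPKM, which encode chains of the proteins that help or restrain class II loading. The 2 lower were H2-Ea-ps, at 24.7 and 420 FPKM, and H2-Eb1, at 12.5 and 171 FPKM. H2-Aa stood at 908 and 632 FPKM and H2-Ab1 at 599.7 and 434 FPKM, both within the rule. Class I and class II genes are known to differ in sequence and number between mouse strains, the builds named in the processing notes are assemblies of the C57BL/6J strain, and the labels give no haplotype. Level and allele cannot be told apart in these values. The cell markers also differed. Of 5 T cell markers 2 stood higher in Koa, with Cd3g at 62.1 FPKM with Koa against 23.6 FPKM without it. Macrophage markers summed to 235 and 385 FPKM, but of 4 only Cd68 was lower past the rule. Itgam went the other way within the rule, at 9.97 and 5.68 FPKM. Mast cell markers summed to 130 and 364 FPKM, with 3 of 4 lower. With the keratinocyte shares subtracted, H2-D1 stood at 461 and 159 FPKM and H2-T9 at 0.00561 and 11.45 FPKM. Of 25 genes 4 stood higher and 5 lower, against 1.41% and 1.40% among all genes. The same 2 counts came with the lowest share, against 1.28% and 1.59%, and with the highest, against 1.52% and 1.41%.

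The layers of 1 site were compared last. In WT ear, H2-M3 and B2m stood higher in dermis than in epidermis and H2-Ke6 and H2-Q7 lower, 2 and 2 of 24 genes, against 21.3% higher and 14.4% lower among all genes. In Koa ear 4 of 24 stood higher in dermis (H2-M3, H2-M5, Psmb10 and B2m) and none lower, against 20.4% and 12.7%. In WT back 2 of 28 stood higher in dermis (H2-M5 and H2-M9) and 4 lower (H2-Q7, H2-T9, H2-Q9 and Psmb9), against 16.1% and 8.27%. Dermis was lower than epidermis by a median log2 ratio of 0.26 to 0.33 over abundant genes, and with this median set to 0 the counts were 6 higher and 1 lower in WT ear, against 24.8% and 10.6% of all genes, 6 and 0 in Koa ear, against 23.6% and 9.65%, and 3 and 1 in the back, against 19.4% and 3.63%. These comparisons reuse the libraries of those above and are not independent of them. The layers were also parted unequally. The median difference of the 8 keratinocyte markers was -3.76 in WT ear, -3.15 in Koa ear and -1.29 in the back. No keratinocyte share was subtracted in these counts.

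H2-M3 stood at 0.446 FPKM in epidermis and 6.91 FPKM in dermis of WT ear, a ratio of 15.5 (10.2 to 25.4), at 0.508 and 8.47 FPKM in Koa ear, and at 13.8 and 17.9 FPKM in back. It was thus higher in dermis in the ear and nearly level in the back, where by the markers 40.7% of dermis was keratinocyte RNA. With that share subtracted, H2-M3 in dorsal dermis came to 12.2 FPKM, and to 20.6 FPKM after rescaling. H2-M9 was listed at 0 in all 3 epidermal libraries and stood at 0.966, 0.545 and 2.70 FPKM in the dermis of WT ear, Koa ear and back. H2-M5 stood at 0.0256, 0.0876 and 0.261 FPKM in the epidermis of WT ear, Koa ear and back and at 0.739, 3.29 and 4.67 FPKM in dermis. These 3 genes of the M region share few windows with other genes, at most 2.23%. The genes just inside the rule were B2m in both ears (1.07 and 1.06) and Psmb9 in the back (-1.003), and those just outside were H2-Ke2 (-0.97), Psmb8 (0.999) and H2-T24 (0.97).

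In tail dermis B2m stood at 246 FPKM, H2-D1 at 311 FPKM, H2-K1 at 128 FPKM, H2-T23 at 28.1 FPKM and H2-T9 at 7.0 FPKM. H2-Q8 was listed at 0, and H2-Q7 stood at 4.28 FPKM. Psmb8, Psmb9 and Psmb10 stood at 17.9, 12.0 and 16.8 FPKM, Tap1 at 6.04 FPKM, Tap2 at 25.9 FPKM and Tapbp at 67.6 FPKM. H2-D1 was the most abundant member there, above B2m. H2-Ke2 and H2-Ke6, the non-class I genes with an H2 symbol, stood at 43.6 to 93.6 FPKM and at 21.3 to 62.2 FPKM across the 7 libraries.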

How the data were processed

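RNA of sorted skin cells was sequenced in 7 libraries, 1 per group. The authors deposited 1 table of FPKM values, per the file header with 1 row per gene symbol. The submitters' processing notes name Cufflinks 2.2.1, TopHat2 2.0.13 and the genome builds mm9 and GRCm38; what each build was for, the annotation and the handling of reads that fit several genes are not given in the sources used here. For 2 columns with a misspelled name the sample was found through its title. No other columns of sample values were in the table.

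Groups were taken from the sample titles. Differences were computed as log2(FPKM + 1) with Python 3.11.15, numpy 2.4.6, pandas 2.3.3 and scipy 1.17.1, for genes at 1 FPKM or more in 1 of the 2 libraries, in 7 comparisons. Col1a1, Col1a2 and Col3a1, listed at 0 in dermal libraries, were left out of the counts over all genes. Every member at 1 FPKM or more in a library is named; other pathway genes are named where past the size rule in a comparison, as examples. Part of the class I transactivation list is not reported here. The members and lists were chosen with earlier results of these data known, and the subtractions of keratinocyte RNA (the median, lowest or highest marker share of the epidermal library of the same site, the remainder rescaled in 1 of them), the sums over like genes and the search for TTTCACTT were added after the data were seen.

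Depth was recovered from the steps that whole fragments leave in low FPKM values of genes with 1 transcript (79.6% to 83.7% of these values came out whole within 0.1 fragment); the procedure was tested on simulated data. Fragments of a gene were then taken from its longest protein-coding transcript in GENCODE vM21, and ratios carry exact conditional binomial intervals (Clopper-Pearson). Reads without molecular identifiers are not independent molecules, so the intervals cover counting error only. Shared sequence was counted as exact 50-base windows of GENCODE vM21 transcripts, in place of a planned protein comparison, for which no protein sequences were at hand. Other pseudocounts, filters, size rules and a median-ratio scaling were tried.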

Additional observations from a re-analysis of the deposited data

How the results depend on the processing

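No paired analysis was possible because each group has 1 library, and no library could be left out for the same reason. Of 57 recomputed counts of genes past the size rule, 43 lay within 1.5 times the count as reported. The share of all genes was not computed at other pseudocounts, filters and size rules. Counts at those settings are therefore not read against all genes. The count between Koa and WT ear dermis was 9 and came to 2 at a pseudocount of 5 FPKM and to 3 at a size rule of 1.5. Between Koa and WT ear epidermis it was 5 and came to 9 at a pseudocount of 0.1, 2 at a pseudocount of 5 and 3 at a size rule of 1.5. Between back and ear it was 18 in dermis, and only the subtraction of the keratinocyte share took it beyond 1.5 times, to 7 at the median and 10 at the highest marker share; it was 13 at the lowest share and 13 at the median share with the remainder rescaled; in epidermis it was 21 and stayed between 17 and 21. Between the layers of WT ear it was 4 and came to 7 at a pseudocount of 0.1, 7 under median-ratio scaling and 1 at a size rule of 1.5. In Koa ear it was 4 and came to 2 at a pseudocount of 5 and 2 at a size rule of 1.5. In the back it was 6 and came to 1 at a pseudocount of 5 and 2 at a size rule of 1.5. Median-ratio scaling moves the layer comparisons most, because the median log2 ratio of dermis to epidermis was -0.26 in WT ear, -0.26 in Koa ear and -0.33 in the back; between back and ear it was -0.09 in dermis.

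Of 953 recomputed differences of genes and groups, 19 of those past the rule changed sign, all between dorsal and WT ear dermis after a subtraction. At the median share they were B2m (-0.29), Psmb9 (-0.33), Tap1 (-0.88), the summed light chain and loading genes (-0.33) and the summed processing genes (-0.31). With rescaling it was Tap1 alone (-0.35). At the highest share they were B2m (-1.19), H2-K1 (-0.20), H2-Q9 (-0.72), H2-T22 (-0.20), Psmb8 (-0.65), Psmb9 (-2.06), Tap1 (-2.02), Tap2 (-0.11), and the sums of the K and D region (-0.35), the T region (-0.065), the immunoproteasome (-0.60), the light chain and loading genes (-1.13) and the processing genes (-1.09). At the lowest share none changed sign. Differences within the rule before subtraction, such as that of H2-D1, were not examined for a change of sign. By construction the subtraction removes more from dorsal than from ear dermis. With 1 library per group, depth limits only the low members: under 1 FPKM a gene rests on few fragments.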
